A study of Mus musculus with 12 samples.

Results

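Gene expression in the forestomach of mice that had drunk 15% alcohol for 40 weeks was compared with that of control mice that drank no alcohol. The members are the 8 samples, of 12 in the series, whose titles name either the 40-week treatment (4 samples) or the negative control (4 samples). Each RNA came from entire forestomach of adult C57BL/6J mice, an inbred wild-type strain. The controls received supersaccharin, a sweetened drink, with 0% alcohol. For the 40-week mice the labels give 15% alcohol and do not mention supersaccharin, and no control group kept for 40 weeks is among the samples. Alcohol, the sweetened drink, time and age can therefore not be told apart in this comparison. The other 4 samples of the series came from mice given 20% alcohol in supersaccharin for 4 weeks, and they entered the fit to share its estimate of the spread. On each array the forestomach RNA carried Cy5 and a commercial reference RNA pooled from mouse tissue carried Cy3, with no dye swap. A level below is the log2 ratio of the sample over that reference, so levels are compared between samples of the same gene and never between genes. Whether the 4 replicates of a group were 4 animals is not stated, and p-values therefore speak only of the spread between these samples, which may be technical.

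The forestomach is the upper part of the rodent stomach. It is lined by a keratinised squamous epithelium, in which basal cells divide and their daughters move upward, switch on differentiation keratins and finally build the cornified envelope, a sheet of cross-linked protein. Macrophages, Langerhans-type dendritic cells and mast cells lie in and beneath this epithelium, over layers of smooth muscle with nerves. Ethanol is oxidised to acetaldehyde by alcohol dehydrogenases and by the cytochrome Cyp2e1, and aldehyde dehydrogenases oxidise acetaldehyde to acetate.

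The deposited columns of the 40-week samples had a narrower spread than those of the controls, with a standard deviation over probes of 1.02 to 1.08 against 1.52 to 1.73. For this reason all columns were quantile normalized, which gives every sample the same distribution, and directions that turn when the columns are used as deposited are named as such. Some samples stood apart before any comparison. In 40-week replicates 3 and 4 a probe of Xist, the RNA that silences an X chromosome in females, stood at 1.91 and 1.63, while in every other sample of the series it lay between -8.40 and -6.83. The Y-linked Eif2s3y stood at -7.21 and -7.48 in the same 2 samples, at 3.79 and 4.03 in 40-week replicates 1 and 2, and between 2.34 and 2.83 in the controls. Sex is not given in the labels. When these 2 samples were left out, 17 of the 126 genes followed lost their call, and they are named as such below. Among the controls, the median level of 24 pancreas acinar genes was 4.99 in replicate 3 against 0.31 to 1.94, and that of 26 glandular stomach genes was 3.75 in replicate 4 against 0.14 to 0.96. Median levels of 24 adipocyte genes ran from 2.34 to 3.28 in the controls and from 2.68 to 4.23 at 40 weeks, lowest in control replicate 1. Keratins of squamous epithelium, the defining markers of the tissue, were far above the reference in all 8 samples, with Krt5 between 3.09 and 4.03.

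Over 20723 genes tested, limma called 7981 at an adjusted p under 0.05 (38.5%), 3683 higher (17.8%) and 4298 lower (20.7%) at 40 weeks. The median change of all genes was -0.08. Without any further normalization limma called 8826, and 5010 genes (24.2%) were called in the same direction under each of 4 ways of treating the columns, 2424 higher (11.7%) and 2586 lower (12.5%). The groups did not overlap for 7625 genes (36.8%), with 17.1% higher and 19.7% lower. Leaving out 40-week replicates 3 and 4 brought the count to 5168, and leaving out control replicates 3 and 4 brought it to 4945. With calls this frequent, each count of a gene group below is read against these shares. Falls were more frequent among the 633 genes with a control log2 ratio of 4 or more, at 35.2%. That share is the baseline for single genes at such levels, among them Cpa3, H2-Aa, Ccl6, Pitx1, Gpx3 and Fabp4 below. A lower level in whole tissue can come from fewer cells of a type or from less RNA per cell, which cannot be told apart here.

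Among genes of tissue macrophages and dendritic cells, falls outnumbered rises after 40 weeks of alcohol. Of 28 tested, 12 fell and 3 rose, 13 did not pass the test, and the median change was -0.61 against -0.08 over all genes. Cd209a, a lectin of monocyte-derived dendritic cells, stood at 1.75, 2.60, 3.15 and 3.04 in the controls and at 0.00, 0.13, 1.11 and 0.74 at 40 weeks, a change of -2.14 ± 0.34 (SE, n = 4 and 4; limma adjusted p = 0.000580). Adgre1, a surface receptor widely used as a macrophage marker, stood at 0.67, 0.06, 0.24 and 0.18 against -1.96, -2.13, -1.37 and -1.60, a change of -2.05 ± 0.21 (limma adjusted p = 5.74e-05). Cd207, which encodes langerin of Langerhans cells, stood at 2.39, 2.91, 3.37 and 2.94 against 1.45, 1.77, 1.57 and 1.12 (-1.43 ± 0.21; limma adjusted p = 0.000438). The groups did not overlap for any of these 3 genes. The fractalkine receptor Cx3cr1 fell by 1.33 ± 0.15 and the complement subunit C1qb by 1.35 ± 0.21 (limma adjusted p = 0.000101 and 0.000621). Clec7a, the beta-glucan receptor dectin-1, fell by 1.38 ± 0.44 (limma adjusted p = 0.0278), a call that was lost without any single sample of 4 (control replicate 3 or 4, 40-week replicate 1 or 2; limma adjusted p = 0.0684 to 0.0780) and with the columns as deposited (-0.69; 0.242). Lyve1, a hyaluronan receptor of lymphatic endothelium and of some macrophages, rose by 1.28 ± 0.19 (limma adjusted p = 0.000422), but it was -1.23 with the columns as deposited and 0.31 as the mean of its probes. Without 40-week replicates 3 and 4 the median of the list was -1.02, with 16 lower and 1 higher, and without control replicates 3 and 4 it was -0.30, with 9 lower and 1 higher.

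Of mast cell genes 10 were tested, and all 10 had a negative change. In the test 4 fell and none rose, with a median of -0.88 (-1.06 without 40-week replicates 3 and 4, and -0.39 without control replicates 3 and 4, where again 4 fell). Tpsb2, a tryptase stored in mast cell granules, stood at 2.32, 2.78, 3.06 and 3.40 in the controls and at 0.42, 0.58, 1.38 and 1.09 at 40 weeks (-2.02 ± 0.30; limma adjusted p = 0.000405). The granule carboxypeptidase Cpa3 stood at 4.44, 4.66, 4.43 and 5.17 against 2.36, 2.35, 3.71 and 3.27 (-1.75 ± 0.29; limma adjusted p = 0.000818). The chymase Mcpt4 stood at 3.87, 3.94, 4.21 and 3.97 against 2.46, 2.93, 2.89 and 2.71 (-1.25 ± 0.17; limma adjusted p = 0.000252). For each of these granule proteases every 40-week sample lay below every control. In the 4-week group Tpsb2 stood between 2.97 and 4.12, and the 40-week group lay 2.65 below it (limma adjusted p = 8.91e-05).

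Of 11 genes of antigen presentation by MHC class II, 4 fell and none rose, with a median of -0.50 (-0.19 without control replicates 3 and 4, where 3 fell). They were the chain gene H2-Aa (-1.02 ± 0.17; limma adjusted p = 0.000747), the chain gene H2-Ab1 (-0.67 ± 0.18; 0.0107), H2-DMa, which helps to load peptides (-1.42 ± 0.33; 0.00530), and Ctss, the protease cathepsin S (-1.45 ± 0.31; 0.00355). H2-Aa stood at 4.70, 5.22, 5.41 and 5.19 in the controls and at 3.86, 4.07, 4.12 and 4.40 at 40 weeks, without overlap. The call of H2-Ab1 was lost without 40-week replicates 3 and 4 (limma adjusted p = 0.0569), and that of H2-DMa without control replicates 3 and 4 (0.0609).

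Lymphocyte genes gave no common direction. Of 22 genes of T cells and NK cells 2 rose and 2 fell, with a median of 0.08, which turned to -0.06 with the columns as deposited was -0.54 without 40-week replicates 3 and 4, and was 0.46 without control replicates 3 and 4. Cd4, the co-receptor of helper T cells, stood at 0.55, 0.67, 1.17 and 0.71 in the controls and at 1.89, 2.36, 1.85 and 1.95 at 40 weeks (1.23 ± 0.18; limma adjusted p = 0.000422). Klrk1, which encodes the NK cell receptor NKG2D, stood at 1.22, 1.67, 2.30 and 1.90 against 0.39, 0.34, 0.48 and 0.91 (-1.24 ± 0.24; limma adjusted p = 0.00192). The groups did not overlap for either gene. Cd8a, the co-receptor of cytotoxic T cells, fell by 0.97 ± 0.25 (limma adjusted p = 0.00895), but was -0.18 as the mean of its probes and 0.62 by another probe used when the probe filter was dropped. The cytotoxic granule protein Prf1 rose by 1.03 ± 0.34 (limma adjusted p = 0.0303), a call that ended without any 1 of 4 samples (control replicate 1 or 2, 40-week replicate 3 or 4; 0.0756 to 0.0863) and with the columns as deposited (0.56; 0.249). Its change was 0.73 without both 40-week replicates 3 and 4 (limma adjusted p = 0.23). Among 9 neutrophil genes the myeloperoxidase gene Mpo fell (-1.05 ± 0.19; limma adjusted p = 0.00160) and the others did not pass the test.

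Interferon-induced genes varied within the groups. Their median level was -0.95, -0.96, -0.53 and 0.49 in the controls and -1.29, -1.30, -0.61 and 0.11 at 40 weeks, and in the 4-week group replicate 2 stood at 1.31 against -1.08 to -0.91. Of 39 tested, 2 rose and 1 fell, with a median of -0.15 that became 0.18 as deposited was -0.70 without 40-week replicates 3 and 4, and was 0.39 without control replicates 3 and 4. Cxcl10, a chemokine induced by interferon gamma, stood at -2.88, -1.79, -1.13 and -1.65 in the controls and at -2.24, 0.22, 3.98 and 3.15 at 40 weeks (3.14 ± 1.04; limma adjusted p = 0.0319). The high values were those of replicates 3 and 4, the samples with Xist, and the groups overlapped. Without that pair the change was 0.85 (limma adjusted p = 0.336), and the call was also lost when any 1 of 5 samples was left out, namely controls 1, 2 and 4 and 40-week replicates 3 and 4 (0.0551 to 0.0923). Gbp6, an interferon-induced guanylate-binding protein, stood at 0.31, 1.55, 2.76 and 3.42 at 40 weeks against -0.95, -0.08, 0.34 and 0.46 in the controls (2.07 ± 0.55; limma adjusted p = 0.0113), and changed by 0.99 without the pair (0.116). Ccl6, a chemokine of macrophages and other myeloid cells, fell evenly, from 5.97, 5.70, 5.77 and 5.55 to 4.29, 4.38, 4.55 and 4.35 (-1.35 ± 0.13; limma adjusted p = 3.08e-05).

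**Figure D1:**
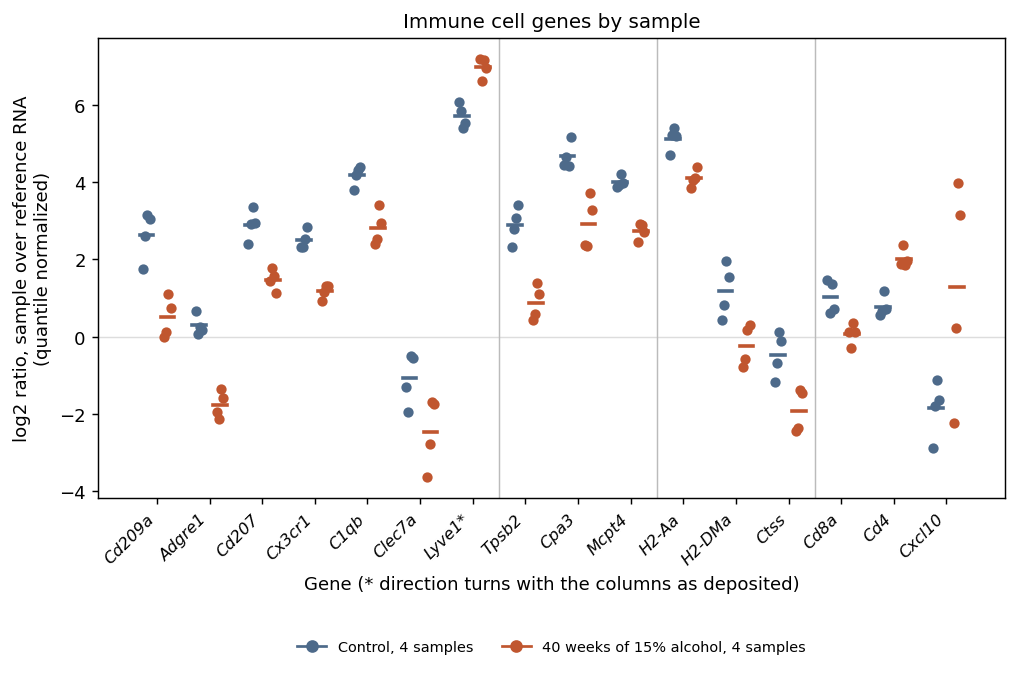
Log2 ratios of 16 immune cell genes (vertical axis, sample over reference RNA, quantile normalized), with each control sample in blue, each 40-week sample in orange, and bars at the group means of 4. Cd209a, Adgre1, Tpsb2 and Cpa3 lie lower in all 40-week samples, Cxcl10 is high in 2 of them, and Lyve1, which is starred, is -1.23 instead of 1.28 with the columns as deposited.

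Genes of the cornified envelope and of suprabasal differentiation fell in large number. Of 58 tested, 32 fell (55.2%), 2 rose and 24 did not pass the test. Among all 633 genes with a control log2 ratio of 4 or more, 35.2% fell, with a median change of -0.27. The median level of the list lay in that range, at 4.56 to 4.75 in the controls. Of the 32 falls, 31 kept their call and direction under all 4 treatments of the columns. The median change was -0.65 and became -2.43 with the columns as deposited, where 54 fell. The check under 4 treatments favoured falls, since as deposited those 633 genes had a median of -2.31. Krt1, a keratin of differentiating keratinocytes, stood at 6.25, 6.45, 6.14 and 6.17 in the controls and at 3.72, 4.31, 4.04 and 3.98 at 40 weeks (-2.24 ± 0.23; limma adjusted p = 4.83e-05). A second, much dimmer probe of Krt1 changed by 0.30 instead. In the 4-week group the brighter probe stood between 4.67 and 5.88, and the median level of the list between 3.33 and 4.43. Crct1, an epidermal differentiation gene, stood at 6.62, 6.54, 6.36 and 6.54 against 4.14, 4.71, 4.54 and 4.45 (-2.06 ± 0.29; limma adjusted p = 0.000303). Involucrin (Ivl), the scaffold of the cornified envelope, stood at 4.85, 5.02, 4.90 and 4.88 against 2.74, 3.42, 3.06 and 3.51 (-1.73 ± 0.17; limma adjusted p = 3.79e-05). In each gene all 40-week samples lay more than 1 log2 unit below the lowest control. Sprr2k, a small proline-rich envelope protein, fell by 1.60 ± 0.14 (limma adjusted p = 2.38e-05). The keratin pair of internal squamous epithelium fell as well, Krt13 by 1.28 ± 0.32 and Krt4 by 0.66 ± 0.16 (limma adjusted p = 0.00864 and 0.00786). A second, dimmer probe of Krt13, with a log2 Cy5 signal in the controls of 15.58 against 16.5, changed by -0.39. The brightest probe stands for each gene, and the part of probe brightness in the size of these falls was not tested. The call of Krt13 was lost without control replicates 3 and 4 (0.0580).

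Genes of the basal layer rose more often than they fell under quantile normalization, and the reverse held with the columns as deposited, where 1 rose and 11 fell. Of 22 tested, 8 rose and 4 fell, with a median of 0.10 that turned to -0.68 with the columns as deposited. There were 6 rises and no fall without 40-week replicates 3 and 4, and 6 rises and 1 fall without control replicates 3 and 4. Krt5, the keratin of basal cells, stood at 3.30, 3.38, 3.42 and 3.09 in the controls and at 4.03, 3.92, 3.85 and 3.96 at 40 weeks (0.64 ± 0.14; limma adjusted p = 0.00415), and was -0.81 as deposited. Its partner Krt14 fell by 0.64 ± 0.22 (limma adjusted p = 0.0414), a call that was lost without any 1 of 7 of the 8 samples, all but control replicate 4 (0.0588 to 0.0901). The change of Krt14 was -0.65 without both 40-week replicates 3 and 4 (limma adjusted p = 0.135). The integrin chain Itgb4 of hemidesmosomes rose by 1.24 ± 0.17 and the Notch ligand Dll1 by 1.47 ± 0.17 (limma adjusted p = 0.000231 and 0.000110), against 0.02 and -0.03 as deposited. Col7a1, the anchoring fibril collagen beneath the epithelium, rose under every treatment of the columns, from 0.87, 0.51, -0.22 and -0.59 to 1.72, 1.90, 1.71 and 1.96 (1.68 ± 0.28; limma adjusted p = 0.000757).

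Transcription factors of squamous epithelium divided. Of 31 tested, 11 rose and 4 fell, with a median of 0.19 that turned to -1.06 as deposited. None of the 11 rises but all 4 falls held under the 4 treatments of the columns. The falls were not all kept when samples were left out, with 7 rises and 1 fall without 40-week replicates 3 and 4. There were 7 rises and 5 falls without control replicates 3 and 4. The check under 4 treatments favoured falls, since as deposited all 1602 genes with a control log2 ratio of 2 to 4 had a median of -1.07. The median level of the list lay in that range, at 2.9 to 3.7 in the controls. Grhl2 rose by 1.62 ± 0.21, Grhl1 by 1.40 ± 0.16 and Sox2 by 1.07 ± 0.14 (limma adjusted p = 0.000206, 9.28e-05 and 0.000236), and as deposited they were -0.03, -1.06 and -1.46. As the mean of its probes Grhl2 was 0.30 (limma adjusted p = 0.119). Pitx1, a homeobox factor of hindlimb and oral epithelium, stood at 5.84, 5.51, 5.42 and 5.49 in the controls and at 4.15, 4.47, 4.43 and 4.31 at 40 weeks (-1.23 ± 0.21; limma adjusted p = 0.000937), without overlap.

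Stress keratins and alarmins, which epithelium makes when it is irritated or wounded, had 9 falls and 5 rises of 34 tested and a median of -0.25 (-2.03 as deposited, with 24 falls and 1 rise). Without 40-week replicates 3 and 4, 5 fell and 2 rose. Serpinb12, a serine protease inhibitor, fell by 2.15 ± 0.26, the cytokine Il1a by 1.40 ± 0.35 and the interleukin 36 gamma gene Il1f9 by 1.06 ± 0.21 (limma adjusted p = 0.000140, 0.00787 and 0.00215). Il1a lost its call without control replicates 3 and 4 (0.0748). Stfa3, a stefin that inhibits cysteine proteases, rose by 1.68 ± 0.22 (limma adjusted p = 0.000201), but was -0.83 as deposited. Csta2, another gene of the same inhibitor family, had the largest rise of all genes that the naming rule took. It stood at 2.10, 2.14, 2.17 and 2.21 in the controls and at 6.01, 6.14, 6.11 and 6.32 at 40 weeks (3.99 ± 0.23; limma adjusted p = 1.95e-06; 2.32 as deposited). The gap between the groups was far wider than the spread within either, and the 4-week group lay between, at 3.93, 4.18, 3.31 and 2.86. Near copies of this inhibitor family lie together in the genome, and the arrays cannot tell whether the probe also bound one of them. Calm4, a calmodulin-like protein of differentiating keratinocytes, stood at 5.90, 5.94, 6.08 and 5.87 against 3.30, 3.68, 3.51 and 3.38 (-2.48 ± 0.27; limma adjusted p = 6.87e-05), and its second probe changed by -0.81. The second probe was dimmer, with a log2 Cy5 signal in the controls of 16.22 against 17.73.

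**Figure D2:**
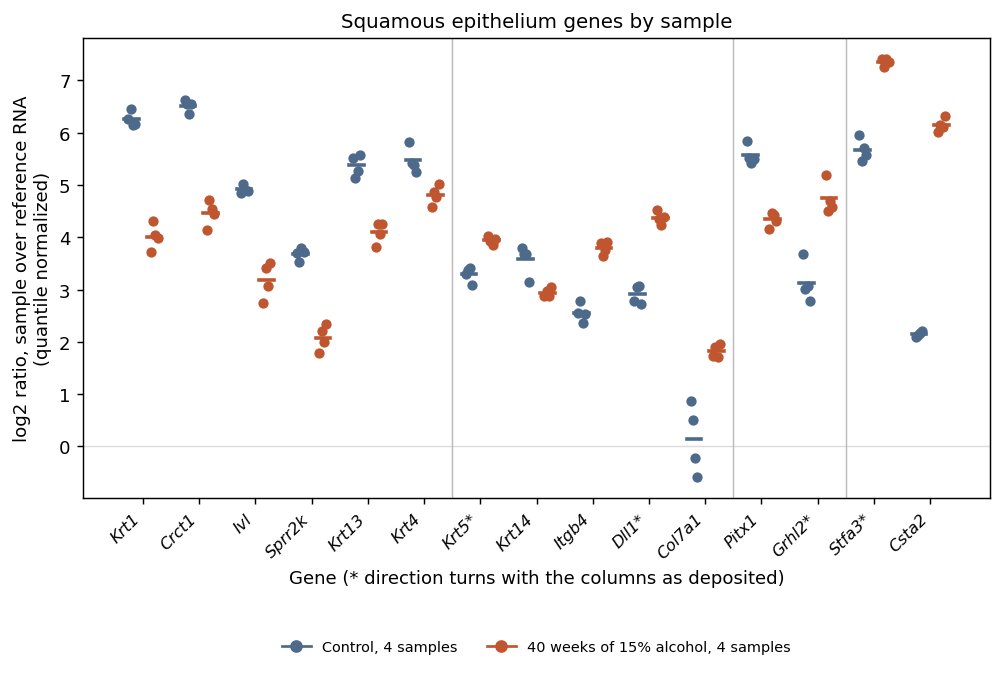
Log2 ratios of 15 genes of squamous epithelium (vertical axis, sample over reference RNA, quantile normalized), with control samples in blue, 40-week samples in orange and bars at the means of 4. Krt1, Crct1, Ivl and Sprr2k are separated downward and Csta2 upward, while the starred genes, among them Krt5 (0.64, or -0.81 as deposited) and Stfa3 (1.68, or -0.83), turn direction with the columns as deposited.

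The enzymes of ethanol oxidation did not move together. Of 18 tested, 6 fell, 2 rose and 10 did not pass the test, with a median of -0.35. As deposited 10 fell and none rose. Adh1, the class I alcohol dehydrogenase, stood at 4.52, 4.31, 4.23 and 4.69 in the controls and at 3.67, 3.84, 3.72 and 3.69 at 40 weeks (-0.70 ± 0.15; limma adjusted p = 0.00324), and its second probe changed by -0.45. The second probe was dimmer, with a log2 Cy5 signal in the controls of 12.35 against 13.63. Adh6a stood at 4.99, 4.74, 4.53 and 4.90 against 4.02, 3.09, 3.68 and 4.09 (-1.07 ± 0.20; limma adjusted p = 0.00156). In both dehydrogenases every 40-week sample lay below every control, and both kept the call under all 4 treatments of the columns. The latter check favoured falls at control levels of 4 or more, where genes in general had a median of -2.31 as deposited. Adh4 fell by 1.32 ± 0.41 (limma adjusted p = 0.0242), and its level of 2.46 in control replicate 3 stood above the other controls, at -0.13 to 1.14. Without control replicate 3 its change was -0.86 (0.0400), the call was lost without 40-week replicate 2 or 3 (0.0664 and 0.0507), without control replicates 3 and 4 it was -0.61 (0.158), and without 40-week replicates 3 and 4 it was -1.54 (0.0596).

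Adh7, the class IV dehydrogenase of upper digestive epithelium that also oxidises retinol, stood at 4.08, 4.12, 4.09 and 3.31 in the controls and at 5.82, 5.56, 5.53 and 5.19 at 40 weeks (1.62 ± 0.19; limma adjusted p = 0.000120). Aldh1a1, which oxidises retinal and acetaldehyde, stood at 3.24, 3.55, 3.58 and 3.53 against 4.46, 4.63, 4.48 and 3.92 (0.90 ± 0.17; limma adjusted p = 0.00172). These rises depended on the treatment of the columns, since as deposited Adh7 was -0.46 and Aldh1a1 -0.75. Aldh2, the mitochondrial enzyme that clears acetaldehyde, changed by 0.49 ± 0.22 and did not pass the test (limma adjusted p = 0.0904), but did without control replicate 3 (0.64; 0.0399) and as the mean of its probes (0.47; 0.0249). Without control replicate 1 its change was 0.28 (0.222). Aldh3a1, another aldehyde dehydrogenase, changed by -0.30 ± 0.19 (limma adjusted p = 0.244), but by -1.35 as deposited (0.000234). Cyp2e1, the ethanol-inducible cytochrome, stood at 2.99, 5.19, 5.22 and 5.34 in the controls and at 3.97, 3.91, 4.29 and 4.10 at 40 weeks (-0.62 ± 0.70; limma adjusted p = 0.511). The low control was replicate 1, in which the median of 24 adipocyte genes was also lowest, at 2.34 against 3.07 to 3.28, and their part in this result was not tested. Without it the change was -1.18 (0.170), without control replicate 4 it was -0.40 (0.721), and as deposited it was -2.52 (0.0286).

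Targets of NRF2, the factor that answers oxidative and electrophile stress, were more often higher than lower under quantile normalization. Of 32 tested, 13 rose (40.6%) and 5 fell (15.6%), with a median of 0.18, which was -0.04 as deposited, where 4 rose and 9 fell. There were 8 rises and 3 falls without 40-week replicates 3 and 4, and 5 rises and 3 falls without control replicates 3 and 4. Only 4 of the 13 rises, and 4 of the 5 falls, kept their call and direction under all 4 treatments of the columns. Osgin1, an oxidative stress growth inhibitor, stood at 0.71, 0.99, 0.96 and 0.87 in the controls and at 1.99, 1.95, 1.69 and 1.71 at 40 weeks (0.96 ± 0.14; limma adjusted p = 0.000391). Transketolase (Tkt), of the pentose phosphate pathway, stood at 0.01, 0.26, 0.13 and 0.08 against 1.08, 0.99, 1.35 and 0.78 (0.93 ± 0.14; limma adjusted p = 0.000383), but its mean over probes was 0.34 (0.110). Gclc, the catalytic part of glutamate-cysteine ligase, with which glutathione synthesis begins, stood at -0.26, 0.34, -0.50 and 0.19 against 1.06, 0.67, 0.90 and 0.82 (0.92 ± 0.18; limma adjusted p = 0.00241). None of the 3 overlapped between the groups. Heme oxygenase 1 (Hmox1) rose by 0.78 ± 0.17 (limma adjusted p = 0.00397), with 0.38 as deposited (0.0972). Nqo1, a quinone reductase often used as a marker of NRF2 activity, changed by -0.47 ± 0.16 (limma adjusted p = 0.0373), a call lost without any 1 of 6 of the 8 samples, all but control replicate 3 and 40-week replicate 2 (0.0580 to 0.0971). Its change was -0.29 without 40-week replicates 3 and 4 (limma adjusted p = 0.289). The glutathione peroxidases Gpx3 and Gpx2 fell by 1.45 ± 0.14 and 1.10 ± 0.20 (limma adjusted p = 3.32e-05 and 0.00122). Gpx3 stood at 4.50, 4.69, 4.50 and 4.18 against 2.92, 3.14, 3.00 and 3.01. At such control levels, of 4 or more, 35.2% of all genes fell.

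Genes of retinoid handling held changes in both directions (2 rose and 2 fell of 21; median -0.01). Stra6, the receptor that takes up retinol, stood at -1.77, -1.80, -1.75 and -1.37 in the controls and at 0.87, 0.11, 0.54 and 1.18 at 40 weeks (2.35 ± 0.21; limma adjusted p = 2.38e-05). In the 4-week group it stood between -2.15 and -1.69. Crabp2, which carries retinoic acid to its nuclear receptor, stood at 4.51, 4.78, 5.10 and 4.75 against 2.97, 3.05, 2.57 and 2.48 (-2.02 ± 0.17; limma adjusted p = 1.71e-05). Neither overlapped, and both calls held under all 4 treatments of the columns. For Crabp2 that check favoured a fall, since genes with a control log2 ratio of 4 or more had a median of -2.31 as deposited. Cyp2b10, a cytochrome induced by foreign compounds, fell by 1.64 ± 0.29 (limma adjusted p = 0.00121).

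**Figure D3:**
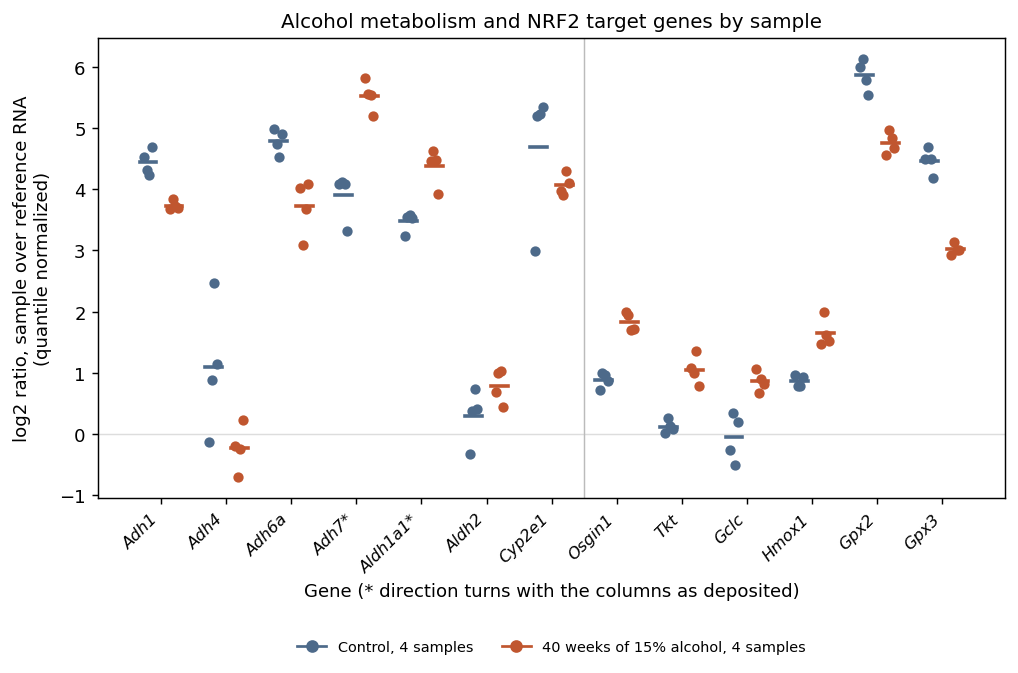
Log2 ratios of 13 genes (vertical axis, sample over reference RNA, quantile normalized), alcohol and aldehyde enzymes left of the line and NRF2 targets with glutathione peroxidases right of it, with control samples in blue, 40-week samples in orange and bars at the means of 4. Adh1 and Adh6a are lower and Osgin1, Tkt and Gclc higher without overlap, whereas the rises of the starred Adh7 and Aldh1a1 become -0.46 and -0.75 with the columns as deposited.

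Genes of the circadian clock rose more often than they fell. In the clock, the factors encoded by Clock and Arntl bind E-boxes and drive Per and Cry genes, whose proteins repress them in turn, and output factors such as Tef, Hlf and Dbp follow. Of 23 tested, 11 rose and 2 fell, with a median of 0.52 (0.22 as deposited, with 8 rises and 1 fall). Without 40-week replicates 3 and 4, 6 rose and 1 fell, with a median of 0.48. Per2, of the repressing limb, stood at -0.03, 0.11, -0.19 and -0.03 in the controls and at 2.89, 2.53, 2.76 and 2.42 at 40 weeks (2.69 ± 0.15; limma adjusted p = 1.84e-06). A second kept probe of Per2, dimmer and about 23 kb away, stood between 0.47 and 0.81 in all 8 samples and changed by -0.07, so the rise rests on 1 probe. Tef stood at 0.63, 0.45, 0.38 and 0.35 against 2.20, 2.20, 2.30 and 1.96 (1.71 ± 0.16; limma adjusted p = 2.66e-05), and its 3 other kept probes had the same sign. Hlf rose by 1.45 ± 0.21 (limma adjusted p = 0.000395), but was 0.06 as deposited. Usp2, a deubiquitinase with a daily rhythm, rose by 1.03 ± 0.18 (limma adjusted p = 0.00110; 0.22 as deposited). Per1 stood at -0.15, 0.31, -0.23 and 0.06 against 0.54, 0.69, 0.83 and 0.86 (0.73 ± 0.17; limma adjusted p = 0.00536), a call lost without 40-week replicates 3 and 4 (0.0624).

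In the opposite direction, Arntl stood at -0.59, -0.27, -0.40 and -0.62 in the controls and at -0.69, -1.05, -1.94 and -1.67 at 40 weeks (-0.87 ± 0.28; limma adjusted p = 0.0300). Its call was lost when any 1 of 4 samples was left out, controls 2 and 3 and 40-week replicates 3 and 4 (0.0645 to 0.0906), and with the columns as deposited (-0.38; 0.283). Its change was -0.40 without both 40-week replicates 3 and 4, the samples with Xist (limma adjusted p = 0.316). Nfil3, a repressor of the same targets as Tef and Hlf, fell by 0.77 ± 0.18 (limma adjusted p = 0.00622), and was -0.13 as deposited (0.610). The labels do not say at which time of day tissue was taken, and time of day and treatment cannot be told apart.

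The promoters of Per1 and Tef are shown because these genes rose and carry the E-box letters CACGTG, in capitals, which read the same on both strands. The windows run from 250 bases before to 50 after the annotated start in RefSeq on build GRCm38.p6, on the plus strand, at chr11:69098699-69098998 for Per1 and at chr15:81802423-81802722 and chr15:81811164-81811463 for 2 starts of Tef.
Per1: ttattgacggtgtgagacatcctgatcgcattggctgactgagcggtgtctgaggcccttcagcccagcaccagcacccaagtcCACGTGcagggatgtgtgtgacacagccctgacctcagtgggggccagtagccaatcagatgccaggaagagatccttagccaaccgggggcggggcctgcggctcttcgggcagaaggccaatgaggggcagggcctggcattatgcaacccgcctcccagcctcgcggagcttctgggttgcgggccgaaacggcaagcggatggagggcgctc
Tef, first start: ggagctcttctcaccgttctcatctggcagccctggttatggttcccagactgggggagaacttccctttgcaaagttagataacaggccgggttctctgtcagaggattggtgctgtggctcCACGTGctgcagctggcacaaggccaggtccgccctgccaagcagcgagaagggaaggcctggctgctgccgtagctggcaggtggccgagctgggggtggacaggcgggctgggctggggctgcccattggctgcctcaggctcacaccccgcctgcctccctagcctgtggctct
Tef, second start: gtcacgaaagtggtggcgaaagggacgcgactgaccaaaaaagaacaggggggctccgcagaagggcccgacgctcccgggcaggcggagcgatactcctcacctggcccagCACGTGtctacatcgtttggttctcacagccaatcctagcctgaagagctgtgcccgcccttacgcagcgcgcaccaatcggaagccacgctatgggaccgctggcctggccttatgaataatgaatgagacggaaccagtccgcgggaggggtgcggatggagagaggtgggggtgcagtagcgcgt
The letters were found in the window of 5 of the 18 clock genes with a promoter in the table, 3 of the 9 that rose and 0 of the 2 that fell. They were found in 10.6% of 13211 tested genes with a promoter and in 7.15% of all 32851 promoters. Such a match is a description of the sequence and not a site of binding.

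Genes of the unfolded protein response, which folds and clears proteins in the endoplasmic reticulum, had more falls than rises under quantile normalization, but not with the columns as deposited. Of 28 tested, 13 fell, 3 rose and 12 did not pass the test, with a median of -0.29 that turned to 0.04 with the columns as deposited, where 7 fell and 8 rose. With the columns centred and scaled the median was -0.21. Sdf2l1 stood at 0.19, -1.14, -0.14 and -0.01 in the controls and at -2.11, -2.29, -2.27 and -1.90 at 40 weeks (-1.87 ± 0.30; limma adjusted p = 0.000611). The disulfide isomerase Pdia4 stood at 1.18, 0.35, 0.42 and 0.84 against -0.73, -1.18, -0.76 and -0.01 (-1.37 ± 0.24; limma adjusted p = 0.00105). The chaperone Canx, calnexin, stood at 0.32, 0.21, -0.16 and -0.39 against -1.27, -0.58, -1.25 and -1.56 (-1.16 ± 0.21; limma adjusted p = 0.00152), and both of its other kept probes had the same sign. None of the 3 overlapped. Hyou1 fell by 1.22 ± 0.18 (limma adjusted p = 0.000438), but was -0.14 as the mean of its probes. Ppp1r15a, which restores translation after stress, fell by 1.16 ± 0.21 and the factor Xbp1 by 0.78 ± 0.15 (limma adjusted p = 0.00120 and 0.00202). Hspa5, the chaperone BiP and the usual marker of the response, changed by -0.15 ± 0.14 and did not pass the test (limma adjusted p = 0.409; 0.29 as deposited).

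The promoters of Canx and Pdia6 are shown because these genes fell and carry the endoplasmic reticulum stress response element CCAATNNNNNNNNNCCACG, in capitals, searched on both strands. The windows are those of RefSeq on GRCm38.p6, at chr11:50325624-50325923 on the minus strand for Canx and at chr12:17266339-17266638 on the plus strand for Pdia6.
Canx: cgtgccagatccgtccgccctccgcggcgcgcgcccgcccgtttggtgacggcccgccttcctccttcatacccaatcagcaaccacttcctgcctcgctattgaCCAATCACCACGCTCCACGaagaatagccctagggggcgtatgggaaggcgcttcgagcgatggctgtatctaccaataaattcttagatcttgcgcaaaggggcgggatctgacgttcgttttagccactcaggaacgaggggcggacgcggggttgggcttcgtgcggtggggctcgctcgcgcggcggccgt
Pdia6: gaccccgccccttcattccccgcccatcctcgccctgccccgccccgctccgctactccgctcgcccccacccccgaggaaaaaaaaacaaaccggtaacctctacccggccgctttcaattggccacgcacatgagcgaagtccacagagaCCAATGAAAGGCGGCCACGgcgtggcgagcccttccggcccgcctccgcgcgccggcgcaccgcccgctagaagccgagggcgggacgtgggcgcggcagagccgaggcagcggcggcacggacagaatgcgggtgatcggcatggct
The element was found in 8 of the 26 listed genes with a promoter in the table, 1 of the 3 that rose and 3 of the 11 that fell, and in 0.16% of tested genes. As for the E-box, a match is a description of the sequence and not a site of binding. The lists hold genes known for each response, so their shares beside those of all genes are no result of these data. Pdia6, a disulfide isomerase, stood at -0.56, -0.87, -0.53 and -0.83 in the controls and at -1.30, -1.53, -1.57 and -1.31 at 40 weeks (-0.73 ± 0.13; limma adjusted p = 0.000956), with -0.20 as deposited (0.168). For NRF2 targets the antioxidant response element core TGACNNNGC, searched in the same way, was found in 9 of 27 genes, 5 of the 11 that rose and 0 of the 4 that fell, against 16.1% of tested genes. The promoter of Txnrd1, a thioredoxin reductase of the antioxidant defence (0.40 ± 0.12; limma adjusted p = 0.0221), holds it on the minus strand and is shown as an example, at chr10:82858956-82859255 on the plus strand.
Txnrd1: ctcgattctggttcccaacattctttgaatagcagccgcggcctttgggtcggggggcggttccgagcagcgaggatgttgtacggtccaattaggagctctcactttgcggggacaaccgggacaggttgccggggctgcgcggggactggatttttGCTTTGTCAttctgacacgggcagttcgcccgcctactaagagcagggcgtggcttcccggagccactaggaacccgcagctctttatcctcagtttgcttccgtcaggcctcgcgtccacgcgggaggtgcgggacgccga
The call of Txnrd1 was lost without control replicate 3 or 40-week replicate 3 (0.0605 and 0.0707). Its change was 0.26 without both 40-week replicates 3 and 4 (limma adjusted p = 0.192).

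**Figure D4:**
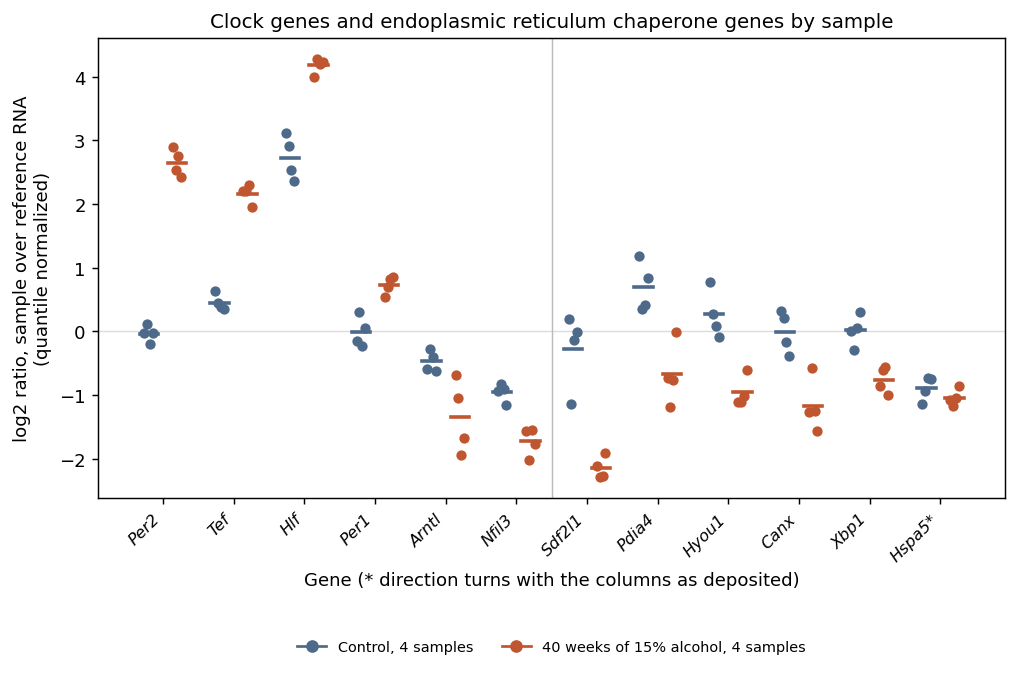
Log2 ratios of 6 clock genes and 6 genes of the unfolded protein response (vertical axis, sample over reference RNA, quantile normalized), left and right of the line, with control samples in blue, 40-week samples in orange and bars at the means of 4. Per2 and Tef are high in all 40-week samples and Sdf2l1, Pdia4 and Canx low, while Hspa5, starred, overlaps between the groups and changes from -0.15 to 0.29 with the columns as deposited.

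Genes of cytosolic ribosomal proteins were slightly lower as a group. Of 55 tested, 19 fell and 1 rose, with a median of -0.26 (-0.27 as deposited). Without 40-week replicates 3 and 4, 7 fell and none rose, with a median of -0.20. The median level was 0.11 to 0.33 in the controls and -0.06 to 0.20 at 40 weeks. In the 4-week group it was also low, at 0.05, -0.18, -0.11 and -0.12. Rpsa, a protein of the small subunit, fell by 1.77 ± 0.15 (limma adjusted p = 1.72e-05), from -0.15, -0.86, -0.33 and -0.39 to -2.05, -2.20, -2.41 and -2.17. Ribosomal genes have many near-identical pseudogenes, so a probe may bind more than 1 of them. Cell cycle genes had 21 falls and 1 rise of 50, with a median of -0.44, but as deposited the median was 0.48, with 23 rises and no fall. Mad2l1, of the spindle checkpoint, Gins1 and Cdt1, of replication, and Cenpa, the centromeric histone, fell by 1.32 ± 0.22, 1.32 ± 0.23, 1.19 ± 0.23 and 1.28 ± 0.22 (limma adjusted p = 0.000898, 0.000989, 0.00197 and 0.000890). As deposited they were -0.23, -0.41, -0.07 and -0.20, and none passed the test. Their levels were far below the reference, with Cenpa between -2.73 and -1.73 in the controls. As deposited, genes in general with a control log2 ratio of -2 or less had a median of 0.95. The median of the list was -0.44 with the columns centred and scaled and 0.51 with centring alone, so no direction held under all 4 treatments.

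Enzymes that release and convert arachidonic acid had 14 falls and 3 rises of 24, with a median of -0.61 (-0.55 as deposited). Of the 14 falls 7, and of the 3 rises 1, kept their call and direction under all 4 treatments of the columns. There were 11 falls and no rise without 40-week replicates 3 and 4, and 7 falls and 3 rises without control replicates 3 and 4. Pla2g2f, a secreted phospholipase of epithelium, stood at 2.73, 2.86, 3.32 and 2.13 in the controls and at 1.10, 1.53, 1.26 and 1.25 at 40 weeks (-1.47 ± 0.30; limma adjusted p = 0.00266). The lipoxygenase Alox12 stood between 4.01 and 4.19 in the controls and between 2.86 and 3.26 at 40 weeks (-1.05 ± 0.17; limma adjusted p = 0.000580). Alox5, the leukotriene-forming lipoxygenase of myeloid and mast cells, stood at 1.83, 1.88, 1.70 and 2.36 against 0.27, 0.54, 1.24 and 1.06 (-1.16 ± 0.24; limma adjusted p = 0.00283). The median level of 10 mast cell genes ran from 1.83 to 3.27 in the controls and from 0.47 to 1.80 at 40 weeks, and that of 28 macrophage and dendritic cell genes from 1.20 to 1.91 and from 0.87 to 1.53. Their part in the result of Alox5 was not tested. Ltb4r2, a receptor for leukotriene B4, fell by 1.41 ± 0.27 (limma adjusted p = 0.00178).

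Other single falls concerned lipid handling. Insig1, a sterol-responsive brake on cholesterol synthesis, stood at 0.54, 0.52, 1.20 and 0.90 in the controls and at -0.78, -0.64, -0.76 and -0.65 at 40 weeks (-1.50 ± 0.16; limma adjusted p = 5.95e-05). The PPAR target Acot2, an acyl-CoA thioesterase, stood at 1.02, 1.36, 1.45 and 1.34 against -0.55, -0.29, -0.52 and -0.99 (-1.88 ± 0.21; limma adjusted p = 8.56e-05). Plin2, which coats lipid droplets, fell by 1.09 ± 0.17 (limma adjusted p = 0.000528). Of the lists to which these belong, cholesterol synthesis had 7 falls and 2 rises of 25 and fatty acid oxidation with PPAR targets 6 falls and 3 rises of 32. As deposited these became 14 falls and 16 falls, with no rise in either.

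Genes of the other layers of the wall were followed as markers of tissue makeup. Of 31 smooth muscle genes 7 rose and 5 fell, with a median of 0.04 that was -1.60 as deposited, where 2 rose and 24 fell. Smooth muscle myosin Myh11 fell by 1.54 ± 0.24 (limma adjusted p = 0.000521), whereas Tagln, an actin-binding protein of smooth muscle, rose by 1.02 ± 0.19 (0.00177; -1.13 as deposited). The mean over probes of Tagln was 0.33 (0.157). Of 22 genes of enteric neurons and glia 9 rose and 2 fell, with a median of 0.27 that turned to -0.69 as deposited, where none rose and 11 fell. The glial S100b rose by 1.29 ± 0.19 and the neuropeptide Vip by 1.05 ± 0.23 (limma adjusted p = 0.000394 and 0.00415), and as deposited both were lower, at -0.48 and -1.29. The call of Vip was lost without 40-week replicates 3 and 4 (0.0568). For muscle and nerve the direction therefore depended on the treatment of the columns. With the columns centred and scaled, the medians were -0.11 for muscle and 0.37 for nerve. Without 40-week replicates 3 and 4, 3 of the nerve genes rose and 1 fell.

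Of 8 red blood cell genes 5 fell and none rose, with a median of -0.69. Alas2, the erythroid enzyme of heme synthesis, fell by 1.63 ± 0.21 and the alpha globin Hba-a1 by 0.87 ± 0.22 (limma adjusted p = 0.000213 and 0.00953), the latter without a call when control replicates 3 and 4 (0.0699) or 40-week replicates 3 and 4 (0.0561) were left out. Of 24 adipocyte genes 4 rose and 2 fell, with a median of 0.24, but as deposited 2 rose and 8 fell, with a median of -0.88. The fatty acid binding protein Fabp4, which macrophages also express, fell by 1.50 ± 0.20, and Ucp1, the uncoupling protein of brown fat, rose by 1.73 ± 0.28 (limma adjusted p = 0.000248 and 0.000700). All 24 pancreas acinar genes had a negative change, with a median of -1.82, and 6 fell, but without control replicates 3 and 4 the median was -0.76 and 1 fell. The protease Cela1 stood at -1.15, -1.05, 5.02 and 2.38 in the controls against -2.26 to -1.98 at 40 weeks (-3.38 ± 1.18; limma adjusted p = 0.0400), and its call was lost without any 1 of 6 samples, all but control replicates 1 and 2 (0.0710 to 0.0959). Without control replicate 3 its change was -2.14. Cela1 was also not called without 40-week replicates 3 and 4 (-3.42, limma adjusted p = 0.142).

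The largest changes outside the lists brought together genes of little common theme. After Csta2, the lipid droplet protein Pnpla3 rose by 3.26 ± 0.30, the sperm acrosome gene Acrbp by 3.20 ± 0.29, the nuclear long noncoding RNA Neat1 by 3.13 ± 0.34 and the neuronal splicing factor Srrm3 by 3.09 ± 0.24 (limma adjusted p = 2.71e-05, 2.41e-05, 6.73e-05 and 1.27e-05). Clec2d, a ligand of an NK cell receptor, stood at -1.64, -1.51, -1.80 and -1.80 in the controls and at 1.13, 0.94, 1.55 and 1.66 at 40 weeks (3.01 ± 0.18; limma adjusted p = 2.26e-06), and the neuronal genes Npas4 and Celf3 rose by 2.90 ± 0.38 and 2.87 ± 0.22 (0.000209 and 1.23e-05). The other 4 of the 12 were cDNA clones without a gene name, 8030498J20Rik (3.22), 6720422M22Rik (2.99), 9530039L23Rik (2.94, or 1.48 and not called as deposited, 0.0593) and 9530010C24Rik (2.88). Neat1 stood at -1.17, -1.41, -2.88 and -2.61 in the controls and between 1.07 and 1.20 at 40 weeks, so its controls differed more among themselves than its 40-week samples did.

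The largest fall by the same rule was of Rab38, a small GTPase of pigment and secretory granules, but its 40-week samples did not form a group. They stood at -1.47, 4.92, -5.01 and 4.69 against 5.05 to 5.78 in the controls (-4.73 ± 1.72; limma adjusted p = 0.0463), and the call was lost without any 1 of 6 samples, the 4 controls or 40-week replicate 1 or 3 (0.0729 to 0.121). Without replicate 3 its change was -2.80. Rab38 was also not called without 40-week replicates 3 and 4 (-3.79, limma adjusted p = 0.0518). Crisp1, a cysteine-rich secretory protein, stood at 3.71, 4.07, 4.37 and 4.95 against 0.66, 1.60, 1.24 and 0.78 (-3.20 ± 0.27; limma adjusted p = 1.72e-05), and at 3.16 to 3.74 in the 4-week group. Adgre4, a macrophage receptor related to Adgre1, stood at 2.48, 2.26, 2.50 and 2.31 against -1.09, -1.09, -1.36 and 1.82 (-2.82 ± 0.59; limma adjusted p = 0.00307), with the high value in replicate 4. The sulfotransferases Sult1d1 (-3.24 ± 0.86; limma adjusted p = 0.0114) and Sult1b1 (-2.25 ± 0.71; 0.0252) and the liver protease inhibitor Serpina1c (-2.48 ± 0.76; 0.0224) were each highest in control replicate 3 or 4, the samples with pancreas and glandular stomach transcripts. Without both of those controls Sult1d1, Sult1b1 and Serpina1c were not called (0.118, 0.0923 and 0.0981), and the part of those transcripts in these falls was not tested. Sult1b1 was -1.50 without control replicate 4 and Serpina1c -1.65 without control replicate 3. The calls of Sult1b1 and Serpina1c were also lost without 40-week replicate 2 (0.0579 and 0.0658), and that of Sult1b1 without 40-week replicate 3 (0.0648). Without 40-week replicates 3 and 4 neither they nor Sult1d1 were called (0.123, 0.0525 and 0.117). The lipocalin Apod (-2.59), Tex26 (-2.45), Xlr (-2.28) and the fatty acid binding protein Fabp7 (-2.27) were among the other falls, with Calm4 above. Of the 24 largest changes, 23 also differed between 40 weeks and 4 weeks (limma adjusted p under 0.05), a comparison in which 40.7% of all genes were called.

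**Figure D5:**
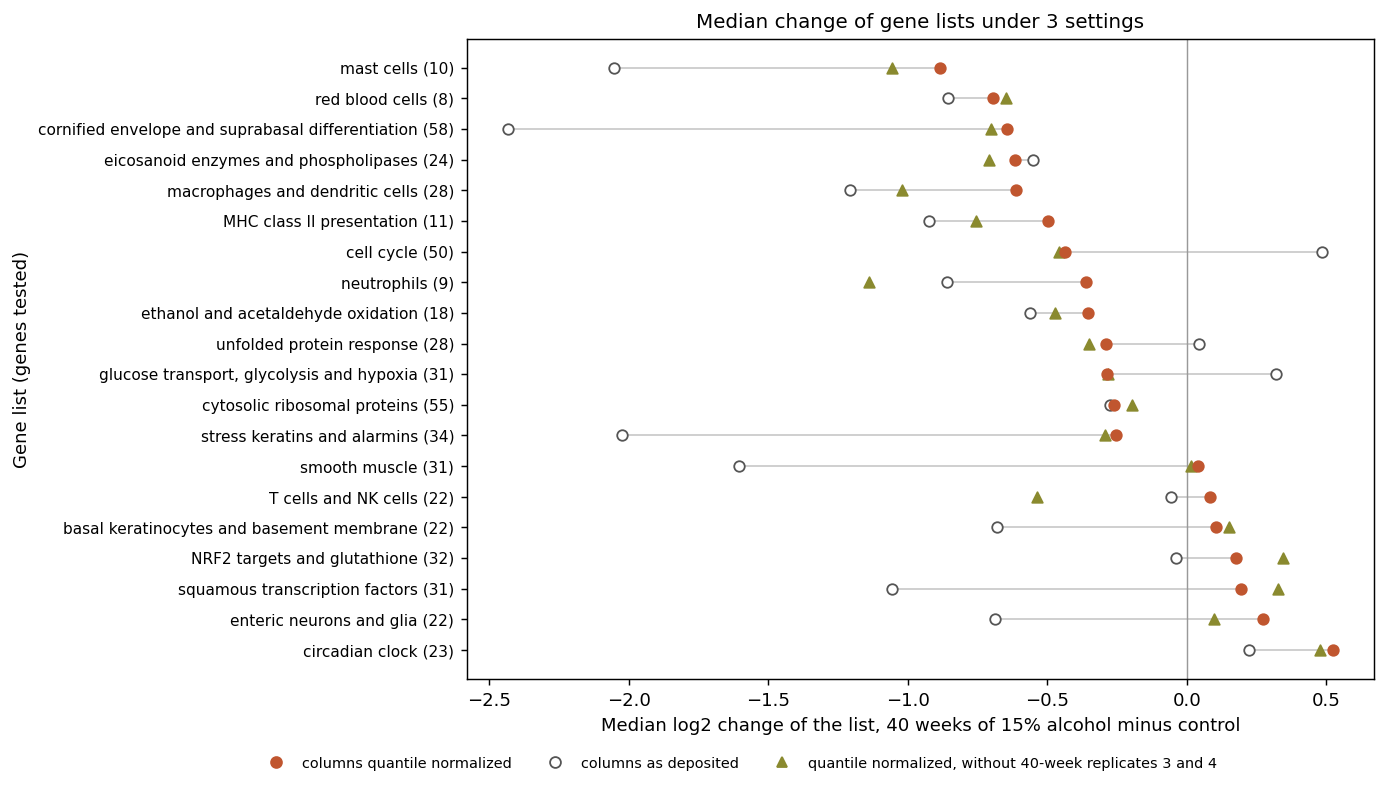
Median log2 change at 40 weeks minus control of 20 gene lists (horizontal axis), with the genes tested in brackets, under quantile normalization (orange), with the columns as deposited (open circles) and without 40-week replicates 3 and 4 (triangles). As deposited, genes with a control log2 ratio of 4 or more had a median change of -2.31, and those at -2 or less 0.95. Mast cell (-0.88), macrophage (-0.61) and cornified envelope (-0.65) genes are below 0 and clock genes (0.52) above 0 under all 3, whereas the basal keratinocyte (0.10 and -0.68), squamous factor (0.19 and -1.06), NRF2 (0.18 and -0.04), enteric neuron (0.27 and -0.69), smooth muscle (0.04 and -1.60), T and NK cell (0.08 and -0.06), cell cycle (-0.44 and 0.48), unfolded protein response (-0.29 and 0.04) and glycolysis (-0.29 and 0.32) lists cross 0 as deposited.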

How the data were processed

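The authors' deposited table gives a log2 ratio (Cy5 to Cy3) per probe for each of 12 arrays. The labels do not say how its 40-week columns were made, and scanner output of those arrays was not used here. For the 8 control and 4-week arrays, spot flags (other values, 0 or 1) and signals as intensity on a linear scale were read from scanner output, per the file headers, which name Agilent Feature Extraction 10.7.3.1, whereas the submitters' processing notes name 9.1. Exact zeros were taken as missing. Columns were quantile normalized over all 12 samples. Probes entered when Cy5 was flagged well above background on 3 or more arrays of 4 in the control or the 4-week group (30440 probes). Transcripts found only at 40 weeks were therefore missed. The brightest probe stood for each gene with at least 3 values per group (20723 genes, 17259 with a symbol). Between 64.8% and 78.8% of spots were well above background in Cy5. Precision is limited by the number of arrays. Differences were fitted with limma 3.58.1 (R 4.3.3, lmFit and eBayes, 3 groups, Benjamini-Hochberg adjustment). The code was also run on simulated data. Far fewer genes were changed in them than were called here, so that run does not speak for the calls reported. The 4 treatments of the columns were quantile normalization, none, centring, and centring with scaling. None and centring both leave the narrower spread of the 40-week columns, and limma called 8826 and 8803 genes under them. In all, 24 alternatives were tried.

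The members and the 44 gene lists were chosen with earlier results of these data known. Genes were named by rule: the 12 largest rises and 12 largest falls among called genes with a symbol whose groups did not overlap, whose probes had 1 sign and which kept it without 40-week replicates 3 and 4 (sex-linked, pancreas and glandular stomach genes aside), the 4 largest called changes of each list, and a set of alcohol and keratin genes. Cx3cr1, C1qb, Gclc, Hmox1, Canx, Pdia6, Txnrd1, Hspa5, Nqo1, Arntl, Nfil3 and Usp2 were added after their values were seen. Some genes that the rule selects are not reported here.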

Additional observations from a re-analysis of the deposited data

Results flagged for a closer look

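A single sample far from the rest of its group of 4 was found for 16 of 340 gene or list levels tested by Dixon's criterion, and chance gives about 5%. Of the lists, the median level of stress keratins and alarmins was 4.26 in control replicate 1, below the 4.80 to 4.89 of the remaining controls, and that of cholesterol synthesis was 0.89 in control replicate 4 (1.04 to 1.07) and 1.11 in 40-week replicate 2 (0.64 to 0.71). Oxidative phosphorylation stood at 0.19 in 40-week replicate 4 (0.29 to 0.31) and ribosomal proteins at 0.20 in 40-week replicate 1 (-0.06 to -0.04).

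Of the genes in the controls, replicate 1 was low for Cyp2e1 (2.99 against 5.19 to 5.34), Il1a (3.97 against 4.65 to 4.78) and Aldh1a1 (3.24 against 3.53 to 3.58). Control replicate 4 was low for Adh7 (3.31 against 4.08 to 4.12) and high for Sult1b1 (6.86 against 3.71 to 3.94) and Stra6 (-1.37 against -1.80 to -1.75), and control replicate 3 was high for Serpina1c (4.16 against 0.72 to 0.96). At 40 weeks, replicate 1 was high for Sult1d1 (3.68 against 1.10 to 1.40), replicate 2 low for Npas4 (3.54 against 3.90 to 3.97), replicate 3 high for Tex26 (-1.35 against -2.48 to -2.34) and replicate 4 high for Adgre4 (1.82 against -1.36 to -1.09).

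Of the 24 largest changes by the naming rule, 23 also differed between the 40-week and the 4-week group in limma's test of that difference, the exception being Serpina1c (-1.60; limma adjusted p = 0.111). The groups differ in dose, time and the drink named in the labels.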

How the results depend on the processing

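The count of called genes (7981) stayed within 1.5 times under 21 of 24 alternatives. It was 5168 without 40-week replicates 3 and 4, 4945 without control replicates 3 and 4, and 2772 without either pair, and called list members, 430 in all, were 265, 271 and 153. Leaving out 1 sample gave 6471 to 8093 genes and 344 to 408 list members. The excess of pancreas transcripts in control replicate 3 over the other controls was 3.71, and 4.97 as deposited and 4.94 with centred columns. With the columns as deposited, or centred, the direction turned for Lyve1 (-1.23, -1.21), Krt5 (-0.81, -0.79), Dll1 (-0.0325, -0.0082), Grhl2 (-0.0265, -0.0023), Grhl1 (-1.06, -1.03), Sox2 (-1.46, -1.43), Stfa3 (-0.83, -0.81), Adh7 (-0.46, -0.44), Aldh1a1 (-0.75, -0.73), Tagln (-1.13, -1.11), S100b (-0.48, -0.46), Vip (-1.29, -1.27) and Hspa5 (0.29, 0.32). Without the probe filter Cd8a was 0.62. The replicate block, with the replicate number of the titles as a block, gave 7799 genes and 420 list members, and 3 of the 126 genes followed lost their call. Deviations from the group means of samples with the same number correlated at 0.20, 0.11, 0.07 and 0.20. As number 3 is under 0.1 and no label names a shared source, the numbers were not taken as pairs, although numbers 1, 2 and 4 correlated best with their own, which is a hint of pairing from the data and not from the design. No other direction of the 126 genes turned. Depth at 40 weeks is unknown.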

Other observations

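The share of genes called higher at 40 weeks fell with the GC content of the probe. It was 24.9% for 3925 genes whose probe had up to 35% GC and 13.6% for 3530 with 50% or more, and rises over 2-fold made up 14.1% and 2.72%. Rises were also more frequent among probes without a gene symbol (28.1% of 3464) than among protein-coding genes (15.3% of 16118), and pseudogenes were often called lower (39.3% of 135). What sets these shares apart was not tested.

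With the columns as deposited the median change ran from 0.95 for genes with a control log2 ratio of -2 or less to -2.31 for those at 4 or more, and after quantile normalization from -0.04 to -0.27. Where a called gene had further kept probes, their sign matched that of the probe used in 2428 of 3808 cases (63.8%), and in 71.4% for changes over 2-fold, against 54.8% for genes not called.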
